A study of Rattus norvegicus with 9 samples.

Results

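Heat shock proteins and related chaperones were measured in severed dendrites of rat hippocampal neurons. The set held 10 genes: the ER chaperones Hspa5 and Hsp90b1, the mitochondrial chaperones Hspd1 and Hspe1, and the cytosolic Hspa8, Hspa4, Hsp90aa1, Hsp90ab1, Hspb1 and Dnaja1. Members were found as the array's probe sets that name only 1 of these genes in the platform's gene table, and where a gene had several such probe sets, their median was taken. This gave 8 genes on 10 probe sets, out of 14217 genes and 31042 probe sets in all, with 4 of the 8 in the cytosol, 2 in the ER and 2 in mitochondria. Hspa8 and Hsp90aa1 were present only on 3 probe sets that also name a second gene, and values from these are given apart under both names.

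Neurons came from embryos of Sprague-Dawley rats at embryonic day 19, received no treatment and had grown for 14 days in dispersed culture. Cell bodies were drawn off with a glass pipette, and the dendrites left behind were pooled from many cells, 100, 200 or 400 to a pool. Each pool size was represented by 3 arrays (Affymetrix, rat), and the RNA had passed several rounds of linear amplification before hybridisation. The labels call the cells pyramidal neurons and the samples biological replicates, without saying whether pools of 1 size came from separate cultures, so p-values measure the spread between these samples only. According to the study, axons could not be told from dendrites by shape in these cultures and some axonal RNA is present. The study also states that RNA of cell bodies may contaminate the samples. Samples of cell bodies were not analysed here, and the part of their RNA was not tested. In pooled material, fewer dendrites that carry a transcript and less of it in each cannot be told apart.

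Signals are log2 values on a scale that was equalised between arrays, with array medians of 7.46 to 7.53. Pairs of arrays correlated at r = 0.678 to 0.878 over probe sets. Replicate 1 of the 400-dendrite pools and replicate 1 of the 100-dendrite pools stood apart on 18 bacterial hybridisation controls, with mean signals of 13.34 and 13.85, against 11.63 to 12.42 in the other 7 arrays. Some results are also given without these 2 arrays, but not the differences of every member between pool sizes. Of 9 measured markers of pyramidal neurons, 6 lay above the 50th percentile of genes, led by the transcription factor Neurod2 (99.9 percentile), while Camk2a stood at 26.3 and Tbr1 at 1.39. Among 10 dendritic mRNAs, Nrgn (99.4) and Dlg4 (98.2) were high and Homer1 (19.5) was low. Of 9 astrocyte markers, 6 lay above the 50th percentile, with a median of 86.0 and Fabp7 highest, and Aqp4 (7.39) and Slc1a2 (14.3) were low. The mean level of the astrocyte list was 8.32 to 9.20 in 100-dendrite pools, 7.34 to 8.79 in 200-dendrite pools and 7.39 to 9.00 in 400-dendrite pools. Above the 50th percentile lay also 7 of 9 oligodendrocyte, 4 of 7 endothelial, 3 of 10 microglia and 3 of 9 fibroblast and mural markers. Endothelial Vwf (99.8) and Esam (98.6) were high, while Tek stood at 8.47. These ranks alone do not tell which cells gave the RNA.

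Chaperones bind unfolded proteins and help them to fold, assemble or reach the proteasome. Hsp70 proteins such as Hspa8 in the cytosol and Hspa5 in the ER work in cycles of ATP hydrolysis that J-domain proteins such as Dnaja1 start and nucleotide exchange factors such as Hspa4 complete, whereas Hsp90 proteins act late, on nearly folded clients. Heat shock factor 1 drives the cytosolic and mitochondrial genes through heat shock elements, and the unfolded protein response drives the ER genes through ER stress response elements. In neurons, Hspa8 also strips clathrin from vesicles, and dendrites make part of their proteins locally.

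In promoter sequence the ER members differed from the others, and the stretches that show this are printed around the elements of these pathways. RefSeq windows on GRCr8, 250 bases before to 50 after the annotated start, were present for 9 of the 10 members. Both strands were searched for TTCNNGAANNTTC (GAANNTTCNNGAA on the other strand), a heat shock element of 3 units, and for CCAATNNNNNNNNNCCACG (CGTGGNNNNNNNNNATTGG), the ER stress response element. Capitals below mark the matches, and each line is read 5′ to 3′ on the gene's own strand. The ER stress response element was present in the windows of Hspa5 (once) and Hsp90b1 (at 2 places), against 0.0657% of 33469 windows.
Hspa5 (chr3:38452953-38453011, + strand): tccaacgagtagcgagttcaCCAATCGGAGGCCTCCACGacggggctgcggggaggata
Hsp90b1, distal (chr7:23012431-23012489, - strand): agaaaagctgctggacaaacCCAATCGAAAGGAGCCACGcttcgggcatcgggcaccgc
Hsp90b1, proximal (chr7:23012327-23012385, - strand): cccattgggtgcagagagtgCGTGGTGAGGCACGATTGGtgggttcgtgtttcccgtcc

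The heat shock element of 3 units was present in 4 of the 9 members with a window, Dnaja1, Hspa8, Hspd1 and Hspe1, against 0.798% of windows. Neither ER member held it, and none of Hsp90ab1, Hspa4 and Hspb1 held either motif in this window. The matches of the cytosolic pair are shown first. That of Dnaja1 began 9 bases after the annotated start, and Hspa8 had 2 matches, which began 213 and 55 bases before it.
Dnaja1 (chr5:60638393-60638433, + strand): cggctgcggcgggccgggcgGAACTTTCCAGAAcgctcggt
Hspa8, distal (chr8:50080281-50080333, + strand): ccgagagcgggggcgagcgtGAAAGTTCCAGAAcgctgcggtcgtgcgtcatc
Hspa8, proximal (chr8:50080439-50080491, + strand): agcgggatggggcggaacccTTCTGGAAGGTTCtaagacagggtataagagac
Hspd1 and Hspe1, which encode the barrel and the lid of the mitochondrial chaperonin, lie head to head on chromosome 9 on opposite strands. Their gene records overlap by 6 bases and their windows by 211, and both windows hold 1 and the same element, read here from either side. Its 2 overlapping matches span 64084262 to 64084279, which is 65 to 48 bases before the start of Hspe1. For Hspd1 the position depends on the start used. The match lies 242 to 225 bases before the start of its window, at 64084037, but the gene record reaches to 64084332, and counted from there the match lies 53 to 70 bases inside the gene. The windows of Hsp90ab1 and Hspa4 likewise begin from a start inside their gene record, and the other 6 windows begin from the start of theirs.
Hspd1 (chr9:64084256-64084285, - strand): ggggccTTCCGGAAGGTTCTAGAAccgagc
Hspe1 (chr9:64084256-64084285, + strand): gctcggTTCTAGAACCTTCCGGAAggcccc

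As a group the measured chaperones, which were chosen with earlier results of these data known, gave high signals. The median member stood at the 81.8 percentile of genes, 7 of the 8 lay above the 50th percentile, 6 above the 75th, and Hspa5 and Hspe1 in the top 5%. An array signal depends on the affinity of each probe, so a percentile is a rank of signal and not of RNA amount. Within single arrays, Hspa5 ranked first of the 8 in 8 of 9 arrays and Hspe1 in 1, and Hspa4 ranked last in 8 of 9 and Hspb1 in 1. Further down, Hspe1 ranked above Hspd1 in 9 of 9 arrays and Hspd1 above Hsp90b1 in 8 of 9. Hsp90b1, Hsp90ab1 and Dnaja1 had no stable order, since Hsp90b1 was above Hsp90ab1 in 4 of 9 arrays and Hsp90ab1 above Dnaja1 in 3 of 9. The plot of signals by pool size shows all 8 genes.

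**Figure D1:**
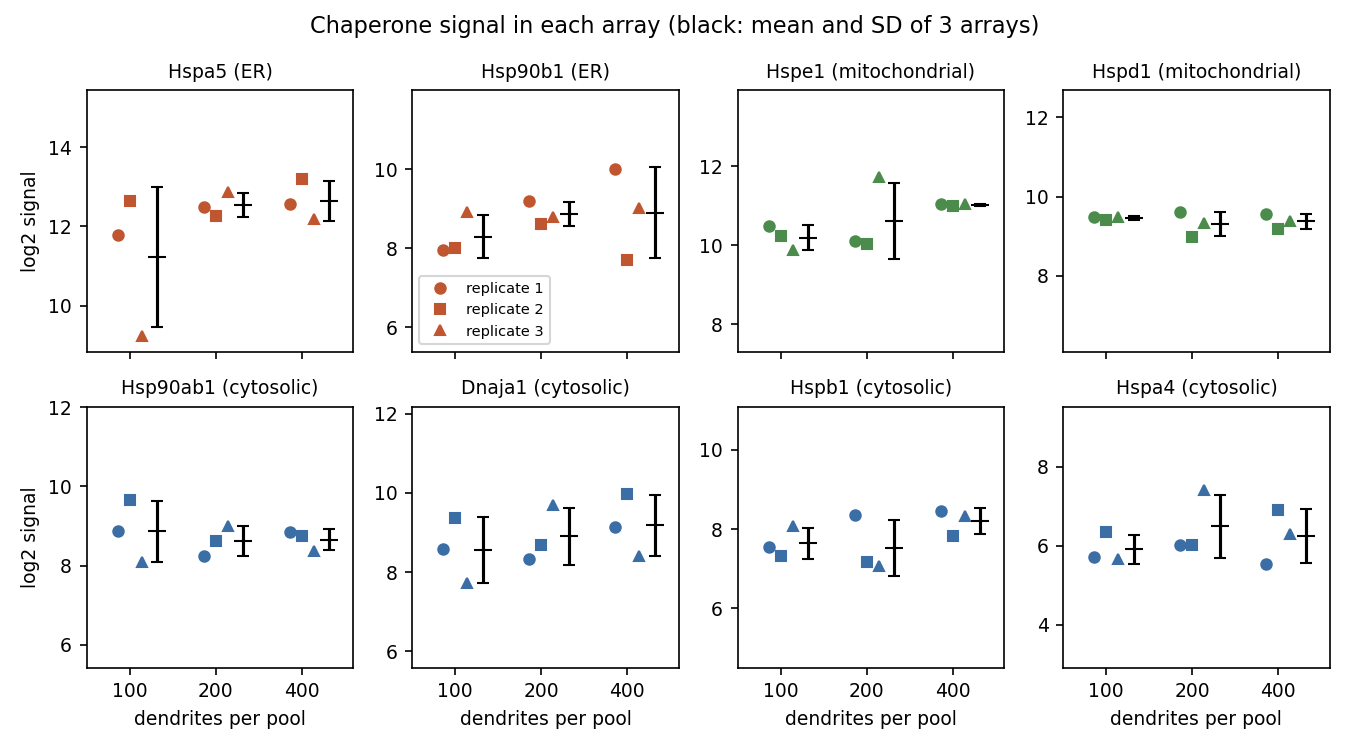
Log2 signal (vertical axis, each panel spanning the same number of log2 units) of the 8 measured chaperone genes in each array, by dendrites per pool (horizontal axis), with the mean and SD of 3 arrays in black beside the points. The 400-dendrite pools of Hspe1 lie at 11.00 to 11.03, above the 100-dendrite pools at 9.87 to 10.48, and 1 array of Hspa5 lies far below the other 8, at 9.23.

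The member of highest signal rank was an ER gene. Hspa5 encodes BiP, the Hsp70 of the ER lumen and the sensor-binding chaperone of the unfolded protein response. It gave 11.79, 12.63 and 9.23 in 100-dendrite pools, 12.49, 12.26 and 12.87 in 200-dendrite pools and 12.58, 13.19 and 12.18 in 400-dendrite pools. The 9.23 of replicate 3 of the 100-dendrite pools was the lowest of 9 by a wide margin, the next lowest being 11.79, and the groups overlapped. Over 9 arrays Hspa5 averaged 12.13 ± 1.16 (SD) and stood at the 99.7 percentile of genes, with a within-array percentile of 87.1 in that array and 99.0 to 99.8 in the others. Its SD was at the 97.1 percentile of the SDs of all genes.

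The difference of Hspa5 between 400- and 100-dendrite pools was 1.43 log2 units (SE 0.70, 95% interval -0.10 to 2.96) and did not pass in limma (unadjusted p = 0.0647, adjusted p = 0.999). Without replicate 3 of the 100-dendrite pools the difference was 0.44. That array also had the lowest Dnaja1, Hsp90ab1 and Hspe1 values of the 9, at 7.71, 8.09 and 9.87. Hspa4, Hspb1, Hsp90b1 and Hspd1 had their lowest values in other arrays. The hybridisation control signal of replicate 3 of the 100-dendrite pools, 12.15, was within the range of the other arrays. So was its correlation with them over all probe sets (median r = 0.827).

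Hsp90b1, or GRP94, is the Hsp90 of the ER and folds secreted and membrane proteins. Its signals were 7.96, 8.003 and 8.91 in 100-dendrite pools, 9.19, 8.61 and 8.80 in 200-dendrite pools and 9.99, 7.69 and 9.01 in 400-dendrite pools (mean over all arrays 8.68 ± 0.72, SD, n = 9, 82.6 percentile). The highest and the lowest of the 9 values both came from 400-dendrite pools. The difference between 400 and 100 dendrites was 0.60 (SE 0.54), and it was -0.11 without the 2 arrays of high hybridisation control signal, since the 9.99 and the 7.96 came from those. Both ER genes carry the same promoter element, and no relation between their signals was detectable over the arrays (r = -0.14, Spearman rho = -0.23, exact permutation test over pairings of 9 arrays, two-sided, p = 0.706 and 0.552, adjusted p = 0.807 and 0.679). Without the 2 arrays farthest from the Hspa5 median r was -0.48, and within pool sizes it was -0.53.

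The mitochondrial pair ranked high and differed in how much it varied. Hspd1 encodes Hsp60, the barrel in which imported proteins fold, and Hspe1 encodes Hsp10, its lid. Hspd1 gave 9.49, 9.40 and 9.49 in 100-dendrite pools, 9.61, 8.98 and 9.33 in 200-dendrite pools and 9.56, 9.18 and 9.39 in 400-dendrite pools. It was the steadiest member, with a mean of 9.38 ± 0.20 (SD, n = 9), and only 1.55% of genes had a smaller SD. The difference between 400 and 100 dendrites was -0.08, with a 95% interval of -0.81 to 0.65.

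Hspe1 gave 10.48, 10.22 and 9.87 in 100-dendrite pools, 10.11, 10.02 and 11.73 in 200-dendrite pools and 11.03, 11.00 and 11.03 in 400-dendrite pools (mean 10.61 ± 0.62, SD, n = 9, 96.1 percentile). Every 400-dendrite array lay above every 100-dendrite array, while the highest value of all came from a 200-dendrite pool. Of the 8 members, 1 (Hspe1) had 400- and 100-dendrite groups that did not overlap, a pattern found in 3.67% of all genes in that direction and 2.58% in the other. The difference was 0.83 (SE 0.46, 95% interval -0.18 to 1.84) and did not pass (limma, unadjusted p = 0.0987, adjusted p = 0.999). Between Hspe1 and the hybridisation control signal r was -0.20 over 9 arrays (exact permutation adjusted p = 0.822). Without the 2 arrays of highest control signal that r was -0.87, and the difference between 400 and 100 dendrites was 0.97. The part of the control signal in these values was not tested.

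Hspd1 and Hspe1 have 1 heat shock element in both windows and form a complex, and no relation between their signals was detectable over the arrays (r = -0.03, rho = -0.07, exact permutation p = 0.934 and 0.880, adjusted p = 0.934 for both). Within pool sizes r was 0.10, and without the 2 arrays farthest from the Hspd1 median it was -0.53. Across compartments, Hspa5 and Hspd1 had r = -0.26 and rho = -0.32 (exact permutation adjusted p = 0.618 for both). Without the 2 arrays farthest from the Hspa5 median that r was -0.07, and within pool sizes it was -0.12.

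Among cytosolic members, Hsp90ab1, the constitutive Hsp90 isoform, gave 8.86, 9.65 and 8.09 in 100-dendrite pools, 8.25, 8.62 and 9.01 in 200-dendrite pools and 8.86, 8.75 and 8.37 in 400-dendrite pools (mean 8.72 ± 0.47, SD, n = 9, 81.1 percentile). The groups overlapped, and the difference between 400 and 100 dendrites was -0.21 (95% interval -1.16 to 0.74). Its 2 probe sets disagreed. That of lower mean signal differed by -0.85 between these pool sizes and that of higher mean by 0.43, and the signals of both had r = -0.02 and rho = 0.02 over 9 arrays. Over all 9 arrays the direction of Hsp90ab1 thus depended on the probe set, and neither passed (limma over probe sets, where 0% were called, unadjusted p = 0.152 and 0.394). The highest and lowest of 9 values of the set of higher mean, 10.07 and 8.37, came from the 2 arrays of high hybridisation control signal. Its other values were 9.54 and 8.62 in 100-dendrite pools and 8.95 and 8.82 in 400-dendrite pools. Those of the set of lower mean were 9.75 and 7.56 against 8.55 and 7.92. Without those 2 arrays both sets were lower on average in 400-dendrite pools.

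Dnaja1, a J-domain partner of cytosolic Hsp70, gave 8.59, 9.38 and 7.71 in 100-dendrite pools, 8.32, 8.68 and 9.70 in 200-dendrite pools and 9.14, 9.98 and 8.42 in 400-dendrite pools (mean 8.88 ± 0.73, SD, n = 9, 80.6 percentile). Replicate 2 was the highest of its group at 400 and 100 dendrites, and all groups overlapped. Its 2 probe sets had the same direction between 400 and 100 dendrites (0.48 and 0.76) and correlated over arrays at r = 0.59. For the gene the difference was 0.62 (SE 0.55).

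Hspb1, the small heat shock protein Hsp27, which holds unfolded proteins without using ATP, gave 7.55, 7.31 and 8.07 in 100-dendrite pools, 8.34, 7.16 and 7.08 in 200-dendrite pools and 8.46, 7.83 and 8.34 in 400-dendrite pools (mean 7.79 ± 0.54, SD, n = 9, 58.4 percentile). The difference between 400 and 100 dendrites was 0.57 (SE 0.43), with overlapping groups. Hspa4, a relative of Hsp70 that serves as its nucleotide exchange factor, was the low member of the set, at 5.72, 6.34 and 5.67 in 100-dendrite pools, 6.02, 6.03 and 7.42 in 200-dendrite pools and 5.54, 6.91 and 6.30 in 400-dendrite pools (mean 6.22 ± 0.62, SD, n = 9, 9.15 percentile). Within single arrays its rank ran between the 4.20 and 45.5 percentiles, the upper end being replicate 3 of the 200-dendrite pools. Between Hspa4 and the hybridisation control signal r was -0.70 and rho -0.82 (exact permutation p = 0.0376 and 0.0108), and neither passed after adjustment over all 10 listed genes and both measures (adjusted p = 0.343 and 0.215). Without the 2 arrays of highest control signal r was -0.73. Of the 10 genes 0 passed by either measure. Without those 2 arrays, r with the control signal was -0.96 for the mean of the Hsp90aa1 probe sets, against -0.43 over all 9 arrays, and -0.63 for the Hspa8 probe set, against -0.53.

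Between pool sizes, no chaperone passed the test. Of the 8 members 0 had an adjusted p under 0.05 in limma for 400 against 100 dendrites, as for all genes (0% called), and 0 had an unadjusted p under 0.05, which 2.41% of genes had (342 of 14217). The methods' t-test also called 0 genes, with 408 under an unadjusted p of 0.05. For 200 against 100 dendrites, for 400 against 200 and for the slope per doubling of dendrites, limma likewise called 0 members and 0 genes (0% in each), with an unadjusted p under 0.05 in 0 members and in 3.03%, 2.3% and 2.73% of genes. In those 3 contrasts the methods' t-test called 0 genes, with 488, 409 and 402 under an unadjusted p of 0.05. Apart from Hspe1 at 400 against 100, 0 members had groups without overlap in a pairwise contrast. Such groups occurred in 4.05% of genes higher and 3.75% lower at 200 against 100 dendrites, and in 3.59% higher and 3.18% lower at 400 against 200.

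Of the 8 members, 6 were higher in 400- than in 100-dendrite pools, where 51.5% of all genes were. The 6 differences ran between 0.34 for Hspa4 and 1.43 for Hspa5, those of Hspd1 and Hsp90ab1 were below 0, and the median of all genes was 0.02 with a median SE of 0.45. The largest difference between 200- and 100-dendrite pools was again that of Hspa5, at 1.32 (SE 0.70), on the same 100-dendrite arrays, whereas between 400 and 200 dendrites it was 0.11. There the largest was that of Hspb1, at 0.68 (SE 0.43). The 95% intervals for 400 minus 100 dendrites reached up to 0.65 for Hspd1 and 2.96 for Hspa5, and differences within them were not detectable with 3 arrays a group.

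**Figure D2:**
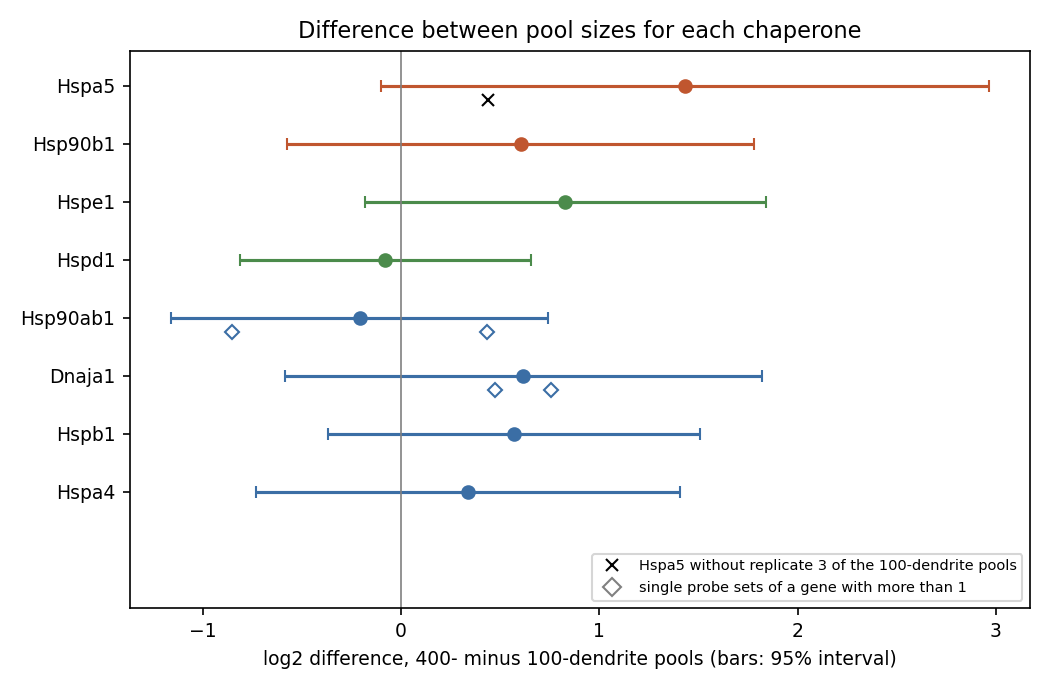
Difference in log2 signal between 400- and 100-dendrite pools (horizontal axis) for each chaperone (vertical axis), with the 95% interval from limma, colours as in the plot of signals by pool size, and open diamonds for single probe sets. Every interval includes 0, the 2 probe sets of Hsp90ab1 lie on opposite sides of 0, and Hspa5 is at 0.44 without 1 array (cross).

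By compartment, the 2 ER and the 2 mitochondrial members ranked above the 4 cytosolic ones measured on probe sets of a single gene. The median within-array percentile of the 2 ER members had a median of 88.1 over the 9 arrays (76.4 to 96.7), that of the 2 mitochondrial members was 92.5 (88.7 to 93.9), and that of the 4 cytosolic members was 65.5 (57.4 to 77.4). ER stood above cytosolic in 9 of 9 arrays, by a median of 20.9 percentile points, and mitochondrial above cytosolic in 9 of 9, by 26.1. ER stood above mitochondrial in only 2 of 9 arrays. These are ranks of a few genes chosen with results known, and no test was made. The order depended on which probe sets count. When the 3 probe sets that name Hspa8 or Hsp90aa1 beside another gene were included, the cytosolic median was 79.0, and ER stood above cytosolic in 7 of 9 arrays (by a median of 10.7 percentile points) and mitochondrial above cytosolic in 9 of 9 (by 11.1).

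**Figure D3:**
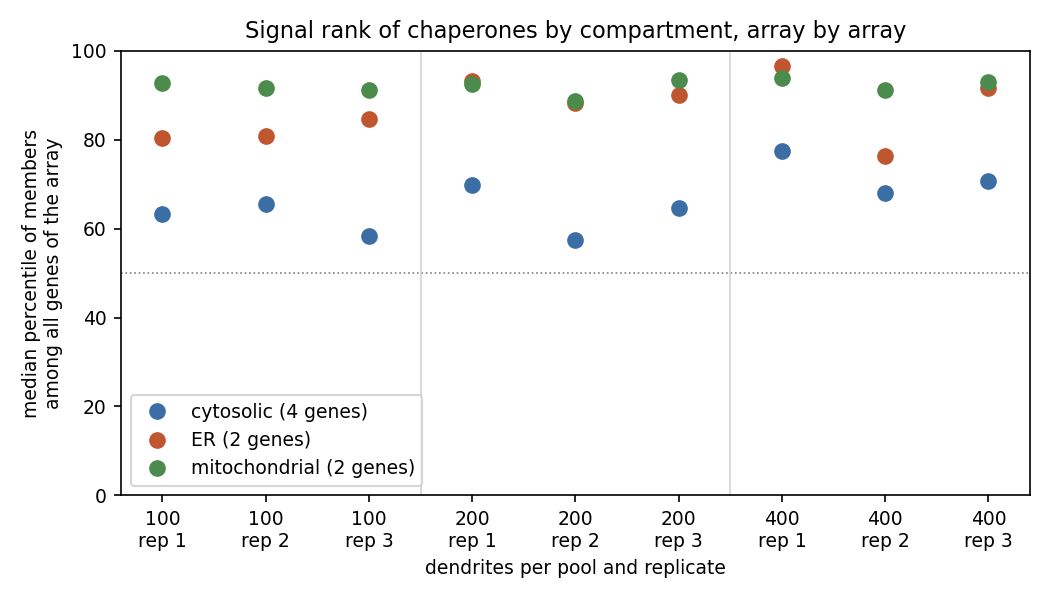
Median percentile of the chaperones of each compartment among all genes of the same array (vertical axis), for the 9 arrays by dendrites per pool and replicate (horizontal axis), with the 50th percentile dotted. The 4 cytosolic members on probe sets of a single gene lie lowest in all 9 arrays, and ER members vary more (76.4 to 96.7) than mitochondrial ones (88.7 to 93.9).

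Cytosolic rank medians were 68.0 to 77.4 in 400-dendrite pools and 58.3 to 65.5 in 100-dendrite pools, so these groups did not overlap, and no test was made. With the several-gene probe sets they did, at 71.5 to 85.1 in 400-dendrite pools and 63.1 to 89.0 in 100-dendrite pools. By signal, no cytosolic member alone had groups without overlap in this contrast, which 3.67% of all genes had higher and 2.58% lower. Mitochondrial ranks overlapped, at 91.1 to 93.9 in 400-dendrite pools and 91.2 to 92.7 in 100-dendrite pools. Median differences between 400 and 100 dendrites were 1.02 for ER members, 0.37 for mitochondrial and 0.45 for cytosolic members. The ER value is the mean of the Hspa5 and Hsp90b1 differences, and it was 0.82 without the 2 arrays of high hybridisation control signal. ER rank medians were 91.7 in 400-dendrite pools and 80.8 in 100-dendrite pools, with values of 76.4 to 96.7 in 400-dendrite pools and 80.3 to 84.7 in 100-dendrite pools, so the groups overlapped.

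The probe set that names Hspa8 together with Haus8l2 gave high signals. Hspa8 encodes Hsc70, the constitutive cytosolic Hsp70, and the array cannot divide the signal between it and Haus8l2. Signals were 10.36, 11.31 and 10.53 in 100-dendrite pools, 10.82, 10.55 and 11.86 in 200-dendrite pools and 11.12, 12.09 and 10.90 in 400-dendrite pools, at the 95.9 percentile of probe sets. This scale differs from the percentile of genes, and on it Hspe1 stood at 94.6. The groups overlapped, and the difference between 400 and 100 dendrites was 0.63 (SE 0.49). The 2 probe sets that name Hsp90aa1, the inducible Hsp90 isoform, and a pseudogene of it ranged between 8.96 and 10.65 (94.2 percentile of probe sets) and between 7.60 and 10.57 (87.4). They correlated with each other at r = 0.30 over 9 arrays, and between their mean and Hsp90ab1 r was 0.30 and rho 0.58 (exact permutation adjusted p = 0.618 and 0.247). Without the 2 arrays farthest from the Hsp90aa1 median that r was 0.23, and within pool sizes it was 0.42.

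Over the arrays the Hspa8 probe set correlated with Dnaja1, Hspa4 and Hspa5, each by at least 1 of r and rho. The 8 pairs tested were set from known complexes, except Hspa5 with Hspd1 and Hspa8 with Hspa5, which were set across compartments. Each pair had r and rho (16 tests, exact permutation, two-sided, Benjamini-Hochberg). Hspa8 with Dnaja1 had r = 0.88 (exact permutation adjusted p = 0.0135) and rho = 0.82 (adjusted p = 0.0431). Hspa8 with Hspa4 had r = 0.82 (exact permutation adjusted p = 0.0395) and rho = 0.70 (adjusted p = 0.138). With Hspa5, rho was 0.93 (exact permutation adjusted p = 0.0120) and r was 0.62 (adjusted p = 0.177), the low Hspa5 array lying off the line. Without that array r was 0.94, a value given as a description, since the array was picked after its signal was seen. Hspa8 with Hsp90ab1 had r = 0.43 and rho = 0.45, which did not pass (exact permutation adjusted p = 0.451 for both).

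The relations with Dnaja1 and Hspa4 leaned on the arrays with the highest Hspa8 signal. The 2 arrays farthest from the median were replicate 2 of the 400-dendrite pools and replicate 3 of the 200-dendrite pools. On the other 7 arrays r was 0.68 for Dnaja1 (exact permutation p = 0.0881), 0.41 for Hspa4 (p = 0.354), 0.52 for Hspa5 (p = 0.243) and 0.56 for Hsp90ab1 (p = 0.189). None of them passed by r. The relation with Hspa5 had passed by rho only, and rho was not computed without these 2 arrays. Leaving out either of those arrays alone ended the call for Dnaja1 (r = 0.81 with the 400-dendrite array left out and 0.85 with the 200-dendrite array left out, exact permutation adjusted p = 0.0908 and 0.0627). For Hspa4 the call ended when replicate 1 or 2 of the 100-dendrite pools, 1 or 3 of the 200-dendrite pools or 2 of the 400-dendrite pools was left out, with r of 0.78 to 0.82. Within pool sizes r was 0.86 for Dnaja1, 0.87 for Hspa4, 0.60 for Hsp90ab1 and 0.51 for Hspa5. Without the 2 arrays of high hybridisation control signal, r was 0.92 for Dnaja1 and 0.91 for Hspa4 (exact permutation adjusted p = 0.0198 for both).

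**Figure D4:**
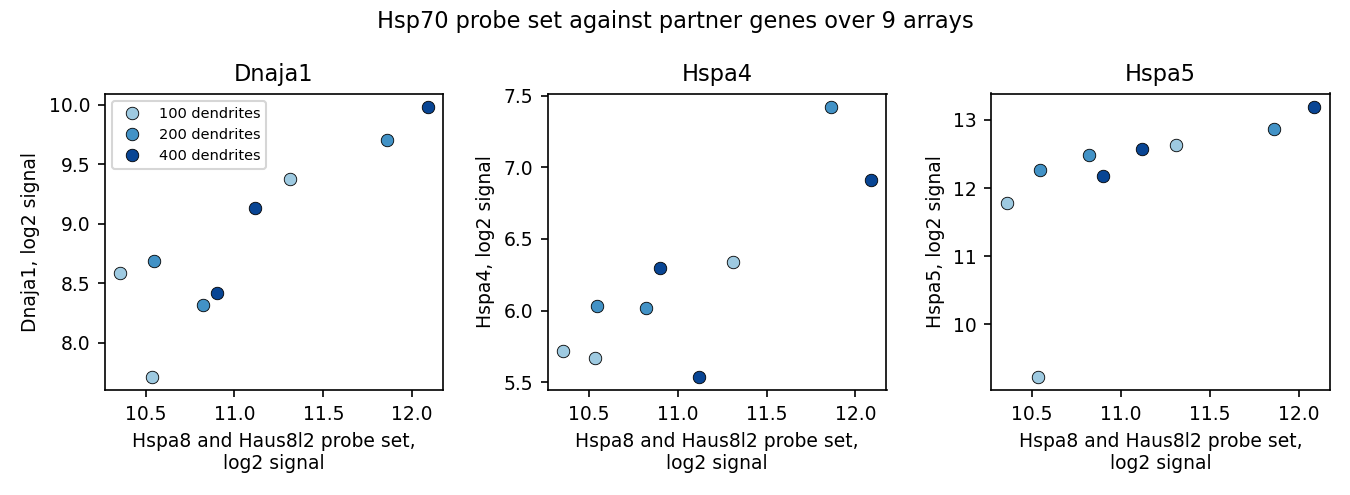
Log2 signal of Dnaja1, Hspa4 and Hspa5 (vertical axes) against that of the probe set naming Hspa8 and Haus8l2 (horizontal axes) in 9 arrays, coloured by dendrites per pool. Points climb from left to right in all panels, with 2 arrays at the upper right, and the lowest Hspa5 point (9.23) lies off the line of the other 8.

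Among all genes, those whose signals followed the Hspa8 probe set most closely were Slc25a5 (r = 0.956 over 9 arrays), Ddx1 (0.933) and Rbm25 (0.930), and the r of Dnaja1 stood at the 99.9 percentile of genes and that of Hspa4 at the 99.6. For Hspa5 the closest were Tppp (0.932), Timm13 (0.919) and Cln3 (0.918), and for Hspd1 they were Cfap77 (0.931), Atl1 (0.930) and Zfp276 (0.923). With 14216 or more genes compared over 9 arrays, such values are a description.

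The wider chaperone network gave signals spread over the whole range. Of 104 companion genes in 8 lists, 101 were measured, 53 of them lay above the 50th percentile and 5 in the top 5%, with a median of 51.0, against 81.8 for the 8 members. Members and lists were chosen with earlier results known, and this contrast was not tested. Among mitochondrial chaperones and proteases the median was 35.6, with 3 of 15 above the 50th percentile. There the exchange factor Grpel2 was highest (95.3 percentile, 10.34 ± 0.64, SD, n = 9) and Clpx, the unfoldase of a matrix protease, lowest (2.47), so that Hspd1 and Hspe1 ranked above most of their compartment. The order of compartments among the members did not recur in the companion lists. Medians were 35.6 for the mitochondrial and 53.0 for the ER list, against 52.1 for cytosolic Hsp70, Hsp110 and cofactors and 66.5 for cytosolic Hsp90 cochaperones.

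ER chaperones and folding enzymes had a median percentile of 53.0, with 13 of 23 above the 50th. The disulfide isomerase gene Pdia6 (97.7 percentile, 11.07 ± 1.16, SD, n = 9) and Calr, which encodes the lectin chaperone calreticulin (94.3), were highest, and Dnajb9, a BiP cofactor, stood at 2.56. Of 19 ER genes in this list with a promoter window, 4 held the ER stress response element found in Hspa5 and Hsp90b1 (21.1%), namely Creld2, Canx, Dnajc3 and Calr. Their percentiles were 75.3, 87.6, 18.3 and 94.3. Sensors and factors of the unfolded protein response had a median of 67.9, led by Atf4 (89.3) and Atf6 (88.6). Xbp1, whose own window held the same element, was the lowest of them at 44.8.

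In the cytosol, 25 Hsp70, Hsp110 and cofactor genes had a median percentile of 52.1, with auxilin (Dnajc6, 90.8) and cysteine string protein (Dnajc5, 88.5), both J-domain proteins of synaptic vesicles, highest and Hspa2 (3.20) lowest. The cochaperones of Hsp90 had a median of 66.5, with the cyclophilin Ppid (96.8, 10.66 ± 0.55, SD, n = 9) and the kinase-specific Cdc37 (88.4) first and Fkbp5 (9.91) last. Subunits of the cytosolic chaperonin CCT and of prefoldin ranged between Cct4 (97.3) and Cct3 (95.4) at the top and Pfdn5 (4.75). Cct4 and Hsph1 of the Hsp70 list (53.8) were the only companion genes with the heat shock element of 3 units in a window. The genes named for a motif were picked after their values were known. Small heat shock proteins had a median of 49.1, from Hspb7 (72.2) and Hspb6 (57.9) to Hspb3 (32.5), and of 3 heat shock factors Hsf2 stood at 77.6, Hsf4 at 18.7 and Hsf1 at 16.6.

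**Figure D5:**
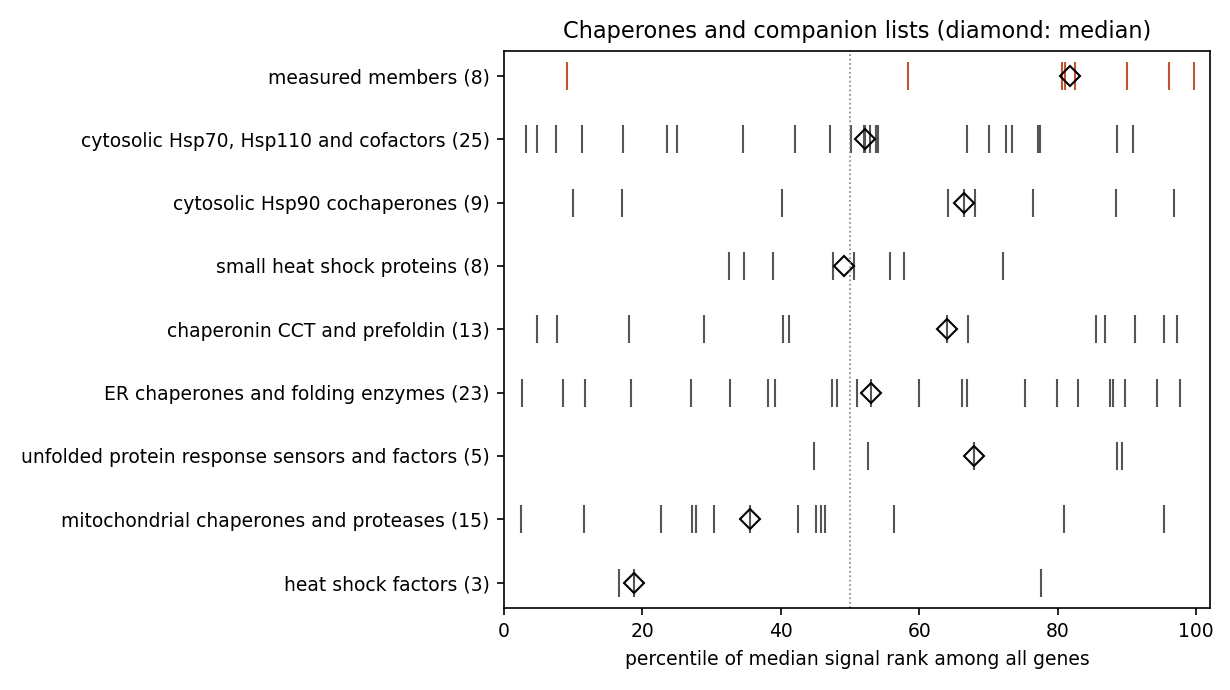
Percentile of the median signal rank among all genes (horizontal axis) for the 8 measured members and the genes of 8 companion lists (vertical axis, number measured in brackets), each tick a gene and each diamond a median. The median of the members lies at 81.8 and that of the mitochondrial list at 35.6, and every companion list with more than 8 genes spans both low and high ranks.

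Between 400- and 100-dendrite pools 0 of the 101 companion genes passed in limma (0% of all genes did), 50 were higher and 51 lower, with a median difference of -0.01, and 3 had an unadjusted p under 0.05. Cryab, the small heat shock protein alpha B-crystallin, gave 7.32, 7.85 and 8.10 in 400-dendrite pools and 7.22, 6.54 and 6.58 in 100-dendrite pools, a difference of 0.98 (limma, unadjusted p = 0.0282). Dnajc15, a J-domain protein of the mitochondrial inner membrane, gave 8.71, 9.33 and 9.27 in 400-dendrite pools and 7.79, 8.01 and 8.07 in 100-dendrite pools, a difference of 1.15 (unadjusted p = 0.0332 in limma). Hspb9 gave 6.69, 6.13 and 5.86 in 400-dendrite pools and 7.08, 8.25 and 6.89 in 100-dendrite pools, a difference of -1.18. In each of these 3, which were picked for their small p, the groups did not overlap, and for each the adjusted p was 0.999. Over all 101 companion genes such groups occurred in 6 that were higher and 2 that were lower in 400-dendrite pools, beside 3.67% and 2.58% of all genes. Of the marker lists, 7 of 9 astrocyte genes were lower (median difference -0.61) and 6 of 9 fibroblast and mural genes higher (0.43) in 400- than in 100-dendrite pools, with 0 past the test in either. Cryab is also expressed by glia, and the part of such cells in these values was not tested.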

How the data were processed

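RNA from 9 pools of rat dendrites had been measured on Affymetrix arrays. The deposited values are log2 signals that the authors made with RMA 2.0 and, according to the methods, with the upper decile of a probe set's probes. In keeping with a decile, an array held 1532 to 4043 distinct values, and of 90 values of the members' probe sets 78 were shared with another probe set. Neighbouring values lay at most 0.06 apart there. The centring and scaling that the methods name are not in the table. The number of arrays limits the precision.

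After 57 control probe sets were set aside, 31042 were tested without a filter. Of these, 20826 named 1 gene, 436 several and 9780 none in the platform annotation. Symbols of 20758 probe sets were updated through Entrez IDs to RefSeq (GRCr8). Contrasts of pool sizes were fitted to all 9 arrays with limma 3.58.1 in R 4.3.3, two-sided, with Benjamini-Hochberg adjustment over all genes or probe sets and a threshold of 0.05. The fit was checked on simulated data. Ranks, correlations and motifs came from Python 3.11.15 (pandas 2.3.3, numpy 2.4.6, scipy 1.17.1), and matplotlib 3.10.9 drew the plots. Correlation p-values come from all 362880 pairings of 9 arrays. Alternatives were quantile normalization, the methods' scaling, the upper part of genes by mean signal, each gene's probe set of highest mean, other variance settings, the methods' t-test, only the arrays compared, a replicate block, the several-gene probe sets, and leaving out each array.

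The text names all 10 members, of each companion list the 2 genes of highest and the 1 of lowest percentile, the 3 companion genes of smallest p for 400 against 100 dendrites, and the 3 genes closest to Hspa5, Hspd1 and Hspa8. The members and lists were chosen with earlier results of these data known.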

Additional observations from a re-analysis of the deposited data

Results flagged for a closer look

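Hspa5 stood out for 1 array. Its lowest signal, 9.23 in replicate 3 of the 100-dendrite pools, was 0.646 of the whole range of the 9 arrays away from the next value of 11.79, above Dixon's critical value for 9 samples. Chance alone sets about 1 in 20 such groups apart, and the lowest and highest arrays of 8 genes were examined. No reason for the low value was tested.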

How the results depend on the processing

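Under every alternative limma called 0 members, companion genes and probe sets between pool sizes. Leaving out single arrays gave differences between 400 and 100 dendrites of -0.60 to 0.18 for Hsp90ab1, where omitting replicate 2 of the 100-dendrite pools turned the sign, and of -0.171 to 0.0184 for Hspd1, turned without replicate 2 of the 400-dendrite pools. Hspa5 ran between 0.44 and 2.14, Hsp90b1 between 0.06 and 1.21, Dnaja1 between 0.19 and 1.03 and Hspe1 between 0.67 and 0.98. The sign also turned with the brighter probe set for Hsp90ab1 (0.43) and, in an alternative chosen after seeing the data, without the 2 arrays of high hybridisation control signal for Hsp90b1 (-0.11).

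Correlations near 0 changed sign: Hspd1 with Hspe1 was 0.0202 under the methods' scaling, 0.10 in residuals from pool size means, 0.0588 in residuals from the hybridisation control signal (chosen after seeing the data) and -0.50 to 0.12 without single arrays. Hspa5 with Hsp90b1 ran between -0.331 and 0.0443 without single arrays. The arrays' replicate numbers did not pair them (deviations of same-numbered arrays correlated at -0.189 to 0.0926 over 9 pairs), and with a replicate block 0 members were called and r of Hspa5 with Hspd1 was 0.24. Hspa8 with Hspa4 no longer passed under the methods' scaling (r = 0.79, exact permutation adjusted p = 0.0517) or in residuals from the control signal (0.75, 0.0526). Without single arrays, r was 0.81 to 0.91 for Hspa8 with Dnaja1, 0.78 to 0.92 with Hspa4 and 0.55 to 0.94 with Hspa5. The cause of these changes was not tested.

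Among the upper part of genes by mean signal, percentiles were lower because only that part was ranked: 92.2 for Hspe1, 80.2 for Hspd1, 65.1 for Hsp90b1, 62.7 for Hsp90ab1, 61.0 for Dnaja1 and 18.3 for Hspb1, with medians of 76.6 for ER, 85.1 for mitochondrial and 56.7 for cytosolic members. With each gene's probe set of highest mean they were 92.5 for Hspe1, 84.0 for Hspd1 and 87.1 for the mitochondrial members. With the several-gene probe sets the cytosolic median was 79.0. The other 329 values of alternatives, single arrays aside, kept their direction and side of the threshold. Ties in the values, at most 293 other probe sets at a member's value, limit ranks most in replicate 1 of the 100-dendrite pools.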
